A study of Mus musculus with 6 samples.

Results

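Primary mouse cardiac fibroblasts that received TGF-b together with an siRNA were compared with cells labelled NC in 1 of the 2 CUT&Tag sets of the study, the T set. Of all regions outside the mitochondrial genome, 58610 were listed in both tables of that set and could be followed from NC through TGF-b to TGF-b with siRNA, out of 170877 regions in the table of TGF-b with NC and 180104 in the table of siRNA with TGF-b. CUT&Tag uses an antibody to bring a transposase to chromatin, so that reads accumulate where the antibody's target lies. The 3 groups were NC, which the labels do not spell out, TGF-b alone, and siRNA plus TGF-b, with the siRNA named after TAZ in the labels, whereas the study's own text describes siRNA against Piezo2 with a scrambled siRNA as control. Each group was 1 library, so the differences compare single libraries, and no test of a treatment was possible. All cells were primary fibroblasts from mouse heart. The labels give no strain, age or number of animals, and a Cre-virus deletion of Tet3 that the series' design text mentions is not given for any sample. The antibody is not named in the labels either. The study profiled TAZ and SRF, and T was read as TAZ, which these tables cannot check.

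TAZ, encoded by Wwtr1, is a transcriptional coactivator that, with its relative YAP, reaches DNA through TEAD factors. The kinases of the Hippo pathway keep both coactivators out of the nucleus, whereas a stiff matrix and tension on the actin cytoskeleton let them in. TGF-b acts through SMAD factors and turns fibroblasts into contractile, matrix-producing myofibroblasts, a state that TAZ and YAP are known to promote. Ccn2, Ankrd1 and Amotl2 are widely used TEAD targets, and Acta2, which encodes smooth muscle actin, is the usual myofibroblast marker.

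The promoters of 5 genes on which the results turn are printed first, with 1 gene for each pattern described below and Acta2 as the marker gene. Each is the 250 bases before the transcription start site (TSS) of the RefSeq record (GRCm38.p6), read 5′ to 3′ on the gene's strand. They were matched by gene symbol, since the files' coordinates fit GRCm39. Of the 45 genes that were to be named, 24 had exactly 1 promoter record, and 6 of these held the TEAD core. Capitals mark an exact match to a TEAD core (GGAATG), AP-1 site (TGANTCA), CArG box or CCAAT on either strand. Near matches are neither marked nor counted, so the CArG-like stretches ccctatatgg and ccttgtttgg in Acta2 stay in small letters. Tigd3 (chromosome 19, 5894129 to 5894378, minus strand) was the promoter with the largest gain over NC, Klhl18 (chromosome 9, 110476695 to 110476944, minus strand) had no reads with siRNA in its first intron, just past this stretch, Snrnp70 (chromosome 7, 45395743 to 45395992, minus strand) was raised by TGF-b and back near NC with siRNA, and Neil3 (chromosome 8, 53639066 to 53639315, minus strand) was lowered by TGF-b and back near NC. Acta2 lies on chromosome 19, 34255374 to 34255623, minus strand.
Tigd3: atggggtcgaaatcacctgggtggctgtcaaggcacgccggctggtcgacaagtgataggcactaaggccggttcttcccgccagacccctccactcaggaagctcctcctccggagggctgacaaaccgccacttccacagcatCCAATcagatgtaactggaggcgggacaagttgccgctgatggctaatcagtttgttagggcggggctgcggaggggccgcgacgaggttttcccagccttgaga
Klhl18: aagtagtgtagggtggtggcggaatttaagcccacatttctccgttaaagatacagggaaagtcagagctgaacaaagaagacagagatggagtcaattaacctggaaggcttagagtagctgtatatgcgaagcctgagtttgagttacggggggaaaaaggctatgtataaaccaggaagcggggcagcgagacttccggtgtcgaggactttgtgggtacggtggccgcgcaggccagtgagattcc
Snrnp70: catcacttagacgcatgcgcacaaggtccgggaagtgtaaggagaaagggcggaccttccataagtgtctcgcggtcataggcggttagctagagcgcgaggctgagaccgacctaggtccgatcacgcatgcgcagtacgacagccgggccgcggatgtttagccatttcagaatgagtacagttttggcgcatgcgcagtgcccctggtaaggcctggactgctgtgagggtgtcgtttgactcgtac
Neil3: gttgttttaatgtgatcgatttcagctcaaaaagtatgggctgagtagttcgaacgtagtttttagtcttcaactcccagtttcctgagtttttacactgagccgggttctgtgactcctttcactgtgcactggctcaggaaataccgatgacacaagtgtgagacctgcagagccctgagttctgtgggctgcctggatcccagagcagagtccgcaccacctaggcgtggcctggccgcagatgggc
Acta2: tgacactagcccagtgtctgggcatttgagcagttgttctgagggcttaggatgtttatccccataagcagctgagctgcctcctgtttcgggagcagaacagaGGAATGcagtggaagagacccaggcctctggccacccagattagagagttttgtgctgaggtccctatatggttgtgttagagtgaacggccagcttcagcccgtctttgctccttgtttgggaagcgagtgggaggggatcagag

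Among these 5 promoters, the TEAD core was found once, in Acta2, from 146 to 141 bases before the start. The Tigd3 promoter held a CCAAT from 105 to 101 bases before its start, and the Klhl18, Snrnp70 and Neil3 promoters held none of the motifs in this stretch. Across 22862 RefSeq promoters with 1 record per gene, 12.6% (Wilson 95% interval 12.2% to 13.1%) held the TEAD core in the same 250 bases, 6.96% an AP-1 site, 1.38% a CArG box, 0.175% the SMAD element GTCTAGAC and 34.7% a CCAAT. A match describes letters only.

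Depth was low and set the limits of the comparison. The joined regions, with a median length of 154 bp, held a median of 6 reads in NC, 9 in TGF-b and 4 with siRNA, counted in a 2 kb window, and 15453 of them (26.4%) had 3 reads or fewer in both NC and siRNA. Every region called in TGF-b is in both tables, so 40621 joined regions were called in TGF-b alone. Conversely, 112267 regions called only in NC and 121494 called only with siRNA are outside the join and carry no ratio of siRNA to NC. In these, the TGF-b library held a median of 3 reads, and NC or siRNA a median of 10 or 7 reads. Most values below are therefore given for the 19232 regions with at least 20 reads in NC plus siRNA, whose medians were 21 reads in NC, 19 in TGF-b and 15 with siRNA. Neighbouring windows overlap, and fewer cells and less of the target per cell cannot be told apart.

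**Figure D1:**
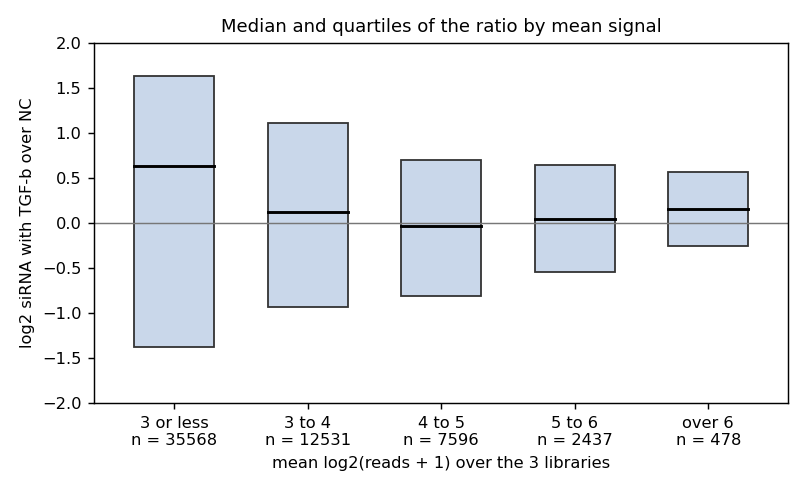
Median (line) and quartiles (box) of log2 siRNA with TGF-b over NC for all joined regions, in bins of the mean log2(reads + 1) over the 3 libraries. The box narrows as reads increase, and the median lies between -0.04 and 0.63 in every bin.

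The first question was how far chromatin association with TGF-b and siRNA differed from NC. Over all joined regions, the normalized read density was at least 2-fold higher with siRNA than in NC at 15763 regions (26.9%) and at least 2-fold lower at 14607 (24.9%). With at least 20 reads, 3959 regions (20.6%) were higher, 4654 (24.2%) were lower and 10619 (55.2%) lay within 2-fold. The median log2 ratio was 0.23 (95% rank interval 0.21 to 0.26) over all joined regions and -0.04 (-0.06 to -0.01) with at least 20 reads. Agreement between the libraries grew with signal. The SD of the log2 ratio over regions was 2.01 among the 35568 weakest regions and 0.62 among the 478 strongest, and the share past 2-fold fell from 57.5% to 11.3%. Promoters were 75.7% of the strongest regions and 11.5% of the weakest, by a distance of at most 3 kb to a TSS. The balance of higher and lower regions depended on scaling. Of regions past 2-fold with at least 20 reads, 46.0% were higher as deposited, 32.0% when each table was centred on its median, which lowers every log2 ratio by 0.32, and 24.2% without the authors' lines, which lowers them by a median of 0.59. Both of these scalings lower the ratios, so no lower call could be lost. Of 34 higher calls among 189 listed genes, 19 were kept when centred and 15 without the lines.

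**Figure D2:**
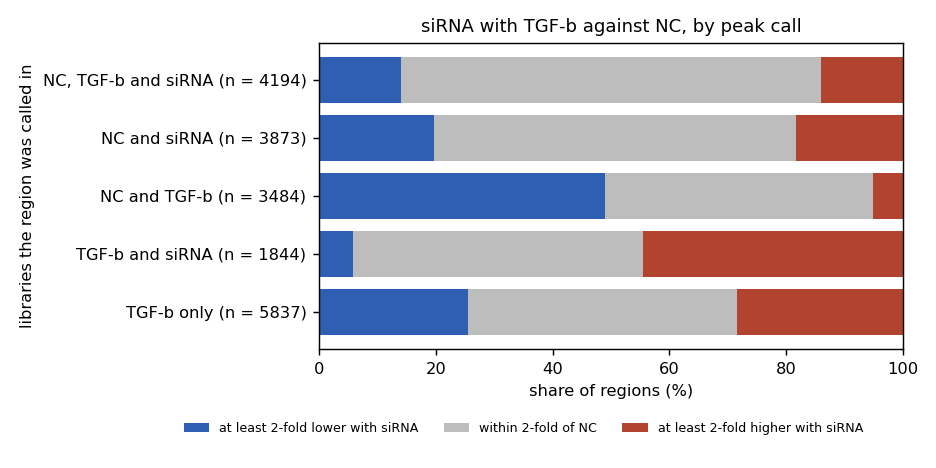
Share of regions (%) that were at least 2-fold lower (blue), within 2-fold (grey) or at least 2-fold higher (red) with siRNA than in NC, for regions with at least 20 reads in NC plus siRNA, by the libraries in which the authors called them. Regions called in all 3 libraries were 14.1% higher and 14.1% lower, whereas 48.9% of those called in NC and TGF-b only were lower.

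Of 127023 regions called in NC, 9843 (7.75%) were also called with siRNA, which is 7.31% of the 134570 siRNA regions. The other pairs also overlapped little. Of the NC regions, 9257 (7.29%) were called in TGF-b, which is 17.4% of the TGF-b regions, and of the siRNA regions 7577 (5.63%) were, or 14.3% of the TGF-b regions. Shared regions lay within 3 kb of a TSS in 33.8% of cases, against 14.8% of the other NC regions and 12.9% of the other siRNA regions. By call, 4344 joined regions were called in all 3 libraries and 5499 in NC and siRNA without TGF-b. These 2 classes had median log2 ratios of siRNA to NC of 0.03 and 0.10. Regions called in NC and TGF-b but not with siRNA (4913) had a median of -1.15, and regions called in TGF-b and siRNA but not in NC (3233) a median of 1.12. The call and the ratio rest on the same reads, so these last 2 medians are a description.

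Regions that differed from NC were less often promoters than regions that did not. With at least 20 reads, 34.9% (33.4% to 36.4%) of higher regions and 30.6% (29.3% to 32.0%) of lower regions lay within 3 kb of a TSS, against 43.2% (42.3% to 44.2%) of regions within 2-fold. Introns made up 40.5% (39.1% to 42.0%) of lower, 38.1% (36.6% to 39.7%) of higher and 34.9% (34.0% to 35.8%) of the regions within 2-fold. Regions with no assigned gene were 31.4%, 29.3% and 24.9%. Regions within 2-fold also held more reads, since the spread of the ratio narrows with signal, and the part of depth in these shares was not tested.

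The second question was how many regions that TGF-b had moved were back at NC level with siRNA. TGF-b raised 27355 joined regions at least 2-fold over NC, and with siRNA 12993 of these (47.5%, 46.9% to 48.1%) lay within 2-fold of NC, 12333 (45.1%) were still higher and 2029 (7.42%) were lower. Of the regions back near NC, 10158 had 3 reads or fewer in both NC and siRNA, so most of this share describes regions without signal in either library. The same depth limit applied to 3657 of the regions still higher and 665 of the lower ones. With at least 20 reads, 845 of 2625 raised regions (32.2%, 30.4% to 34.0%) were back near NC and 1747 (66.6%, 64.7% to 68.3%) were still higher. The read minimum itself favours the second class, since a region low in NC reaches 20 reads in NC plus siRNA only if siRNA is high, so these shares only describe the regions that passed. Promoters made up 76.3% of the 845 and 44.1% of the 1747. Of 5230 regions lowered by TGF-b, 2595 (49.6%, 48.3% to 51.0%) were back near NC, 2271 (43.4%) were still lower and 364 (6.96%) were higher, and none of the 2595 was at the floor of 3 reads in both. A region not called in TGF-b is joined only if it was called in both NC and siRNA. Entry to the join thus itself favours a return of lowered regions, and these shares only describe joined regions. Where TGF-b stayed within 2-fold of NC, 62.1% of the 12602 regions with at least 20 reads stayed there with siRNA, 22.2% were lower and 15.8% were higher. Both ratios share the NC library, and the part of this in the shares was not tested.

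At single genes, 1 region within 3 kb of a TSS was taken, that of the highest mean signal, and a call required a 2-fold difference and a counting interval that leaves out 0. Of 6340 genes with at least 20 reads there, 1147 (18.1%) were called higher with siRNA than NC and 1166 (18.4%) lower, and the median log2 ratio was 0.04. These shares are the background for every gene list below, and their balance rests on the scaling. When centred, 720 genes were higher and 1610 lower (median -0.28), and without the authors' lines 532 and 1921 (median -0.45).

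The 8 genes with the strongest gain over NC all had 0 or 1 read in NC. Tigd3 (ENSMUSG00000044390), a gene derived from a Tigger transposon, had a promoter region on chromosome 19, 5944156 to 5944298, with 0 reads in NC, 13 in TGF-b and 64 with siRNA, at least 26.1-fold higher than NC with NC set to the floor of 3 reads. Orai2 (ENSMUSG00000039747), a subunit of store-operated calcium channels, held 1, 21 and 42 reads in NC, TGF-b and siRNA at chromosome 5, 136199579 to 136199766, a ratio of 33.3-fold (log2 5.06, 3.50 to 8.55), or 16.6-fold with NC set to the same floor. Shisa4 (ENSMUSG00000041889), which encodes a membrane protein, held 0, 28 and 35 reads at chromosome 1, 135302855 to 135303118, at least 14.1-fold higher. For these 3 promoters TGF-b alone already stood above NC. Nop58 (ENSMUSG00000026020), a core protein of box C/D small nucleolar ribonucleoproteins, held 0, 11 and 28 reads in an intron at -2510 bases from the assigned TSS, at least 11.6-fold higher. Myt1, a zinc finger factor of neural development, held 0, 6 and 30 reads, Prpf40b, a splicing factor, 0, 6 and 24, the vomeronasal receptor gene Vmn2r109 0, 5 and 26, and C230099D08Rik 0, 5 and 34. Their folds over the floor were at least 12.6, 10.2, 11.03 and 14.3, respectively. None of the 8 belongs to the Hippo and TEAD or TGF-b lists. These lists hold 15 and 14 of the 6340 genes with at least 20 reads, so absence among 8 genes says little.

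The 8 genes with the strongest loss had 37 to 61 reads in NC and 0 or 1 with siRNA. At Capza2 (ENSMUSG00000015733), a subunit of the protein that caps actin filaments, NC held 61 reads in the promoter region (chromosome 6, 17636722 to 17637075), TGF-b 45 and siRNA 1, a ratio of NC to siRNA of 23.1-fold (log2 siRNA over NC -4.53, -8.03 to -2.99), or 11.6-fold with siRNA set to the floor of 3 reads. At Trrap (ENSMUSG00000045482), a scaffold of histone acetyltransferase complexes, the reads at chromosome 5, 144704693 to 144705023, were 56, 32 and 1, 21.01-fold lower (log2 -4.39, -7.89 to -2.85), or 10.5-fold with the floor. Klhl18 (ENSMUSG00000054792), a substrate adaptor of a CUL3 ubiquitin ligase, held 42, 39 and 0 reads in an intron at chromosome 9, 110305213 to 110305584, at least 7.92-fold lower than NC with siRNA set to the floor. In these 3 and in Cmtm7 (37, 26 and 0 reads), TGF-b kept most of the NC reads and siRNA had almost none. At Cdh4, which encodes R-cadherin, the reads were 47, 9 and 0, and at the zinc finger gene Zfp113 they were 41, 11 and 0, so TGF-b was already below NC. Gm15947 held 44, 19 and 0 reads and Gm43660 39, 18 and 0. The lower bounds of the difference were 8.56-fold for Cdh4, 8.15-fold for Gm15947, 7.49-fold for Zfp113, 7.21-fold for Gm43660 and 6.90-fold for Cmtm7.

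**Figure D3:**
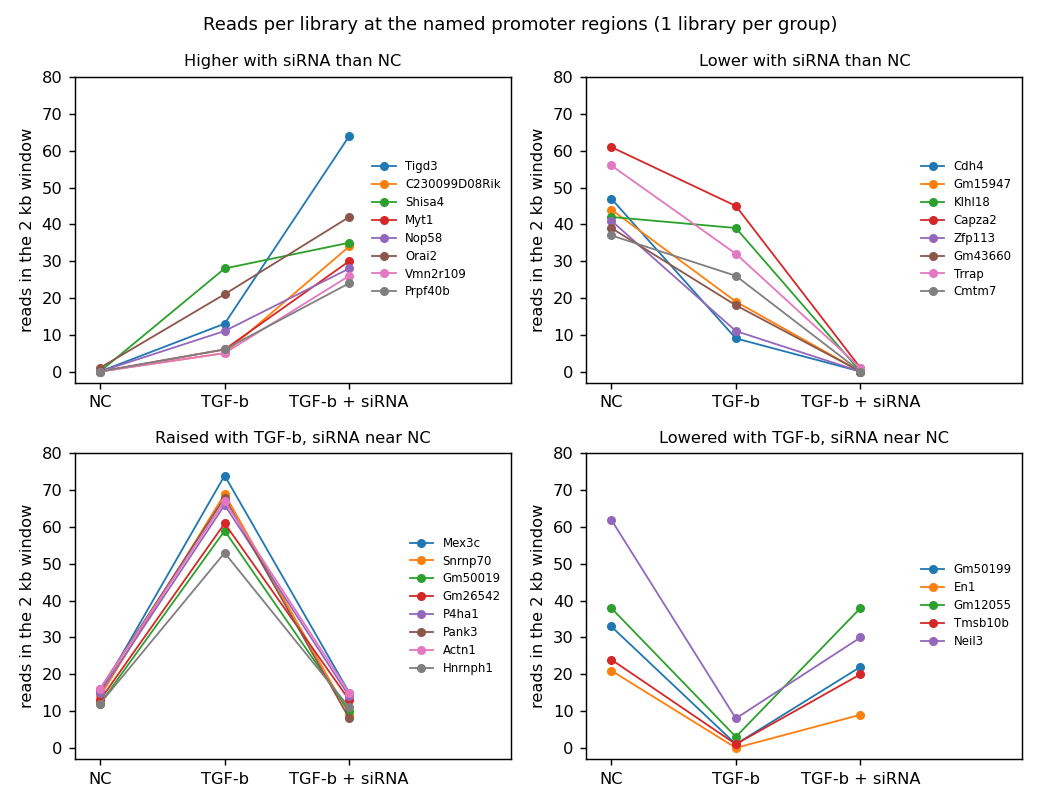
Reads in the 2 kb window of the named promoter regions in NC, TGF-b and TGF-b with siRNA, 1 library each, in 4 panels by pattern. The 8 genes at top left have 0 or 1 read in NC, those at top right 0 or 1 with siRNA, and the 8 at bottom left peak between 53 and 74 reads in TGF-b with 8 to 16 reads on either side.

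Among 6356 eligible genes, 1234 were raised at least 2-fold by TGF-b, and 310 of these lay within 1.5-fold of NC with siRNA. The 8 with the clearest TGF-b excess had 12 to 16 reads in NC, 53 to 74 in TGF-b and 8 to 15 with siRNA. In reads, which are not rescaled between libraries, 4 of the 8 lay below the lowest NC value of 12 with siRNA. By normalized density, only Snrnp70 (log2 -0.10) and Pank3 (log2 -0.44) lay below NC. Closeness to NC was part of the choice of these genes. P4ha1 (ENSMUSG00000019916), the catalytic subunit of collagen prolyl 4-hydroxylase that stabilises the collagen triple helix, held 15, 66 and 14 reads at its promoter (chromosome 10, 59158929 to 59159254), with log2 ratios to NC of 2.08 for TGF-b and 0.39 (-0.64 to 1.42) for siRNA. Actn1 (ENSMUSG00000015143), the actin crosslinker alpha-actinin 1, held 16, 67 and 15 reads (chromosome 12, 80307097 to 80307400), with log2 ratios of 2.01 and 0.40 (-0.61 to 1.39). Both encode proteins of the myofibroblast programme. The splicing and RNA-binding genes Snrnp70 (14, 69 and 9 reads), Hnrnph1 (12, 53 and 11) and Mex3c (15, 74 and 15) had the same shape, as did Pank3 (16, 68 and 8), a kinase of coenzyme A synthesis, Gm50019 (12, 59 and 10) and Gm26542 (13, 61 and 13). Gm26542 and Hnrnph1 both lie on chromosome 11, with their regions starting at 50127440 and 50268406. At each of the 8, the interval of siRNA over NC held both 0 and a 2-fold difference in at least 1 direction.

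In the other direction, 540 genes were lowered at least 2-fold by TGF-b and 155 of these were within 1.5-fold of NC with siRNA. Neil3 (ENSMUSG00000039396), a DNA glycosylase of base excision repair, held 62, 8 and 30 reads at chromosome 8, 54092004 to 54092244, with log2 ratios to NC of -2.77 for TGF-b and -0.52 (-1.17 to 0.08) for siRNA. En1, a homeobox gene, held 21, 0 and 9 reads, Gm12055 38, 3 and 38, Tmsb10b 24, 1 and 20, and Gm50199 33, 1 and 22. By normalized density, Gm12055 lay farthest from NC of the 5, with a log2 ratio of 0.56 (-0.08 to 1.203) for siRNA. All but Neil3 were called in NC and siRNA and not in TGF-b, and without the siRNA call they would not have been joined.

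Of the 16 fibroblast, Hippo and study genes fixed by name, 14 had a joined region, and Ccn1 and Yap1 had none. Wwtr1 (ENSMUSG00000027803), which encodes TAZ, held 41, 65 and 25 reads at its promoter (chromosome 3, 57483187 to 57483491), a log2 ratio of siRNA to NC of -0.25 (-0.98 to 0.44). CUT&Tag reads at a gene do not measure its transcript, so they do not check a knockdown. Piezo2, the mechanosensitive channel that the study's text names as the siRNA target, had 5 intron regions with at least 20 reads. The region with the highest mean signal held 33, 26 and 19 reads (log2 -0.28, -1.11 to 0.50), and 1 of the other 4 was called lower, with 39, 21 and 5 reads (log2 -2.26, -3.78 to -1.19).

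Acta2 and Ccn2 were lower with siRNA than in NC. Acta2 (ENSMUSG00000035783) had a region in its 5′ UTR (chromosome 19, 34232681 to 34232803) where NC held 35 reads, TGF-b 36 and siRNA 8, 2.89-fold below NC (log2 -1.53, -2.74 to -0.58). At Ccn2 (ENSMUSG00000019997), which encodes a matricellular growth factor, the exon 1 region (chromosome 10, 24471483 to 24471791) held 150, 115 and 54 reads (log2 -1.08, -1.55 to -0.65). The neighbouring Ccn2 promoter region (24471110 to 24471430), whose window overlaps the first, held 109, 96 and 29 (log2 -1.49, -2.11 to -0.93). At these 3 regions near a TSS the log2 ratio of TGF-b to NC lay between -0.50 and 0.04 and siRNA was lowest.

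Amotl2, Ankrd1, Vcl and the strongest Tagln region lay within 2-fold of NC. Amotl2 held 64, 84 and 30 reads (log2 -0.65, -1.30 to -0.05), short of 2-fold, and Ankrd1, a muscle ankyrin repeat gene, 52, 25 and 32 (log2 -0.21, -0.86 to 0.40). Vcl, which encodes the adhesion protein vinculin, held 31, 76 and 36 reads (log2 0.67, -0.01 to 1.36). Tagln, the actin-binding transgelin, held 23, 33 and 28 at its strongest region (log2 0.77, -0.004 to 1.57) and 15, 38 and 27 at a region 53 bases before the TSS (log2 1.32, 0.46 to 2.26), whose windows overlap. Tagln thus did not share the loss at Acta2. Col1a1, a fibrillar collagen chain, had 12, 24 and 6 reads. Postn, Srf and Tet3 had only regions over 10 kb from a TSS, with 12, 6 and 2 reads, 5, 10 and 0 reads, and 6, 10 and 0 reads.

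Tead1 (ENSMUSG00000055320), which encodes a DNA-binding partner of TAZ, had 7 regions with at least 20 reads over 150 kb, of which 3 were called higher and none lower. Its promoter (chromosome 7, 112278072 to 112278620) held 24, 81 and 31 reads (log2 siRNA over NC 0.82, 0.07 to 1.59). The intron region at 112262850 to 112262987 held 4, 38 and 25 reads (log2 2.94, 1.75 to 4.67), and that at 112413058 to 112413298 held 14, 13 and 39 (log2 1.97, 1.17 to 2.90). The third, at 112299472 to 112299622, held 8, 17 and 15 (log2 1.39, 0.27 to 2.67). The second of these introns had no excess in TGF-b alone, and 2 of the 3 calls were kept when centred and without the lines.

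**Figure D4:**
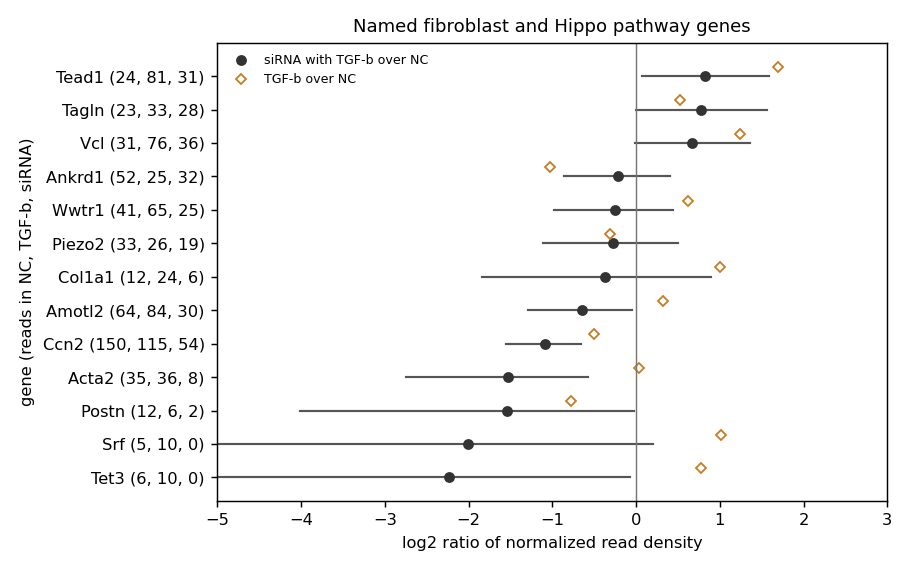
Log2 ratio of normalized read density at the main region of 13 named genes, siRNA with TGF-b over NC (filled circles, with the 95% counting interval as a line) and TGF-b over NC (open diamonds), with reads in NC, TGF-b and siRNA in parentheses. Lines that reach -5 have no lower bound because siRNA had 0 reads. Acta2, Ccn2 and Postn lie below -1 with intervals left of 0, Postn with 12 NC reads. The points of Srf and Tet3 rest on 0 siRNA reads, and against the floor of 3 reads Tet3 is 1.18-fold and Srf 1.004-fold below NC.

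The contractile and actin cytoskeleton genes were the larger of the 2 lists outside the cell type markers whose calls all went in 1 direction. Of its 25 genes, 18 had a promoter region with at least 20 reads, of which 5 were called lower, none higher and 13 neither, with a median log2 ratio of 0.15 against 0.04 over all genes and 18.4% called lower over all genes. The 5 were Acta2, Myl9, Mrtfb, Mrtfa and Actn4. The absence of higher calls holds only for the 1 region taken per gene. Tagln entered with its region of highest mean signal (log2 0.77). The Tagln region 53 bases before the TSS (log2 1.32, 0.46 to 2.26) would have been called higher. Myl9, a myosin regulatory light chain, held 31, 22 and 7 reads (log2 -1.51, -2.81 to -0.50). Mrtfa and Mrtfb, the actin-regulated coactivators of SRF, held 23, 3 and 6 and 34, 21 and 9 reads (log2 -1.21 and -1.32). Actn4, alpha-actinin 4, held 50, 13 and 16 (log2 -1.09, -1.95 to -0.35). Myh9 with 105, 130 and 87 reads and Zyx with 107, 182 and 120, lay at 0.12 and 0.54. The list's median was -0.17 when centred and -0.31 without the lines, with 6 lower and none higher under both. These 2 genes, and the uncalled genes given for the matrix, TGF-b and AP-1 lists, were picked after their values were seen.

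Among 22 YAP/TAZ targets, 11 were deep enough, of which 4 were called higher, 2 lower and 5 neither (median -0.18). Nuak2, a kinase, went from 3 NC reads to 31 in TGF-b and 20 with siRNA (log2 2.97, 1.66 to 4.97), Myof, a membrane repair protein, 6, 28 and 15 (log2 1.75), and Ptpn14, a phosphatase that binds YAP, 18, 60 and 30 (log2 1.19). Dock5, a Rac exchange factor, held 17, 29 and 4 (log2 -1.35, -3.09 to -0.08). The fourth higher gene was Gadd45a and the second lower gene Ccn2. The higher calls at Ptpn14 and Gadd45a were lost under both other scalings, and those at Nuak2 and Myof were kept. The list then had 2 higher and 2 lower when centred (median -0.49), and 2 higher and 4 lower without the lines (median -0.65), where Amotl2 and Igfbp3 were also called lower.

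Of the Hippo pathway and TEAD genes, 15 of 25 were deep enough, with 3 higher, 2 lower and a median of 0.03. Amot, an angiomotin that holds YAP and TAZ at junctions, on the X chromosome, held 1, 44 and 21 reads (log2 4.06, 2.44 to 7.54). With NC set to the floor of 3 reads, Amot was 8.33-fold higher. Ajuba, a LIM protein that restrains the Hippo kinases, held 47, 22 and 12 reads (log2 -1.41), and Tead3 25, 25 and 6 (log2 -1.40, -2.81 to -0.32). Stk3, a core Hippo kinase, held 27, 57 and 44 and Vgll3, a TEAD cofactor, 27, 60 and 44 (log2 1.16 for either), and neither of these higher calls was kept under the other scalings. The list had 1 higher and 3 lower when centred (median -0.29), and 1 and 4 without the lines (median -0.47).

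In the matrix list, 6 of 25 genes were deep enough, and 3 were called lower, none higher (median -0.81). Thbs2, a thrombospondin, held 18, 21 and 3 reads (log2 -1.74, -3.74 to -0.41), Tnc, the glycoprotein tenascin C, 54, 19 and 12 (log2 -1.61, -2.58 to -0.81), and Loxl1, which crosslinks elastin, 38, 31 and 11 (log2 -1.23, -2.27 to -0.37). Serpinh1, the collagen chaperone, and Lox, a crosslinking enzyme, lay at -0.11 and 0.06. With 6 genes, this list says little about matrix genes at large.

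TGF-b signalling genes went both ways, with 2 higher and 3 lower among 14 deep enough of 25 (median -0.22), and with 4 and 5 lower beside the same number higher when centred and without the lines. Tgfb1 (ENSMUSG00000002603), the ligand itself, held 19, 25 and 61 reads in an exon region 513 bases into the gene (chromosome 7, 25388788 to 25388942; log2 2.15, 1.47 to 2.94), and Smad6, an inhibitory SMAD, 16, 46 and 41 (log2 1.81, 1.04 to 2.68). Both calls were kept under the other scalings. Tgfbr3, a coreceptor, held 20, 7 and 0 reads, at least 3.63-fold lower, and Id1, a target of BMP signalling, 34, 30 and 8 (log2 -1.48, -2.70 to -0.53). The receptor genes Tgfbr1 and Tgfbr2 and the effector gene Smad3 were not called, at 0.93, 0.74 and -0.40. Ski, a repressor of SMADs, had the most TGF-b reads of the list, with 29, 158 and 41 reads, and was 0.92 (0.25 to 1.61) above NC with siRNA.

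AP-1 and immediate early genes included 11 deep enough of 20, with 2 higher and 3 lower (median -0.29). Ier3, a stress-induced survival gene, held 33, 24 and 0 reads, at least 6.14-fold lower, Maff, a small MAF factor, 85, 60 and 23 (log2 -1.42, -2.13 to -0.81), and Egr1, a zinc finger factor and SRF target, 68, 71 and 22 (log2 -1.17, -1.90 to -0.52). At all 3, TGF-b lay closer to NC than siRNA did. Jun (29, 69 and 27 reads), Fosl2 (35, 80 and 20) and Junb (39, 74 and 23) were between 0.87 and 1.202 higher in TGF-b than in NC on the log2 scale and within 2-fold of NC with siRNA. Ier2 and Klf6, at 1.25 and 1.03, were called higher, which neither of the other scalings kept, and 4 genes were lower under both.

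**Figure D5:**
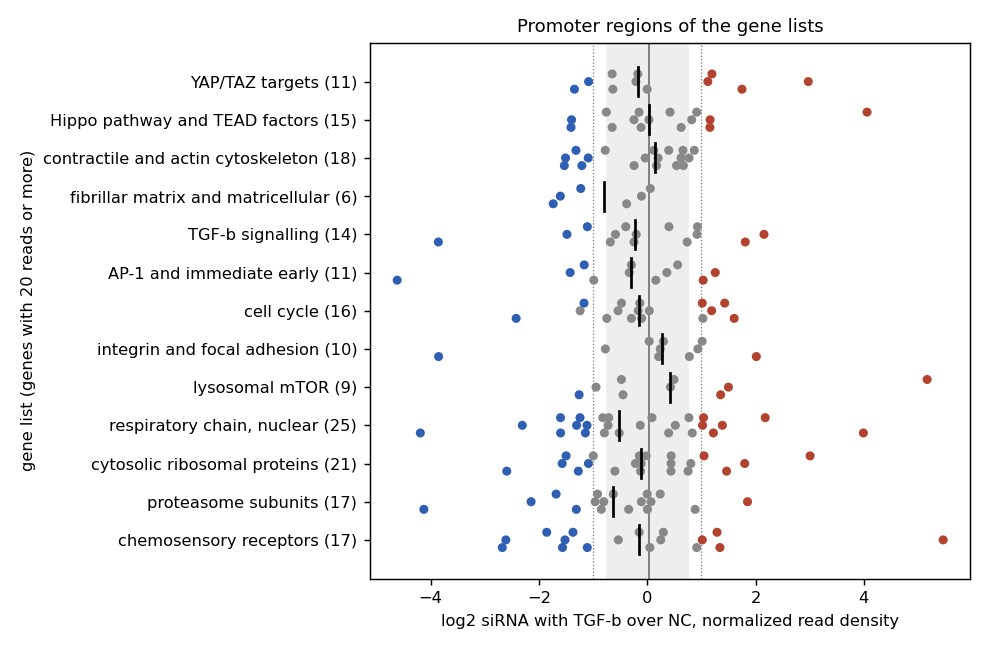
Log2 siRNA with TGF-b over NC at the promoter region of each gene with at least 20 reads, by gene list, with genes called higher in red, lower in blue and neither in grey. The black bar is the list's median, the grey line and band are the median and quartiles of all 6340 genes, and dotted lines mark 2-fold. Most lists have calls on both sides, and the contractile and matrix lists have lower calls only.

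Cell cycle genes had 4 higher and 2 lower among 16 deep enough of 29 (median -0.15). Ccne1 (cyclin E1) held 20, 36 and 44 reads (log2 1.604, 0.89 to 2.40), while Ccne2 held 43, 20 and 13 (log2 -1.17, -2.12 to -0.36), so the cyclin E genes differed in direction. Of the replicative helicase subunits, Mcm2 had 22, 13 and 2 reads (log2 -2.42, -4.88 to -1.004) and Mcm7 19, 38 and 37 (log2 1.43, 0.68 to 2.25). Mcm7 and Ccne1 were higher also when centred, and only Ccne1 without the lines, while lower calls came to 4 and 5, so the balance of the list turned. In the integrin and focal adhesion list, 10 of 20 were deep enough. Ptk2 (focal adhesion kinase) held 39, 23 and 1 reads (log2 -3.85, -7.35 to -2.29), Itgb1 (integrin beta 1) 7, 27 and 21 (log2 2.01, 0.94 to 3.34), and the other 8 were not called. With siRNA set to the floor of 3 reads, Ptk2 was 7.23-fold lower. The median of the adhesion list turned from 0.27 to -0.05 when centred and -0.23 without the lines, with 1 higher and 2 lower under both.

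Among lysosomal mTOR genes, 9 of 18 were deep enough, with 3 higher and 1 lower (median 0.43). When centred, 3 were higher and 2 lower (median 0.11), and without the lines 2 and 2 (median -0.09). Rragc, a Rag GTPase, held 0, 31 and 22 reads, at least 8.98-fold higher, and Mtor, the kinase, 24, 35 and 49 (log2 1.498, 0.83 to 2.23). Tfeb, a lysosomal transcription factor, held 17, 24 and 31 (log2 1.35, not kept without the lines), and Flcn, folliculin, 45, 39 and 13 (log2 -1.26, -2.21 to -0.46).

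Lists of broadly expressed genes served as a comparison. Nuclear genes of the respiratory chain had 6 higher and 8 lower among 25 (median -0.52), from Ndufb6 with 25, 11 and 0 reads to Ndufb5 with 1, 44 and 20. Sdhb held 33, 46 and 4 reads (log2 -2.31) and Ndufb7 10, 22 and 33 (log2 2.18). Cytosolic ribosomal protein genes had 4 higher and 5 lower among 21 (median -0.11), with Rps18 (3, 12 and 20 reads, log2 3.01), Rpl14 (25, 10 and 2, log2 -2.60), Rpl27 (11, 37 and 28, log2 1.80) and Rpl41 (24, 31 and 5, log2 -1.57) the farthest from NC. Proteasome genes had 1 higher and 4 lower among 17 (median -0.63), led by Psma8 (24, 9 and 0 reads), Psma4 (24, 21 and 3, log2 -2.15), Psmb10 (8, 19 and 21, log2 1.85) and Psmd5 (22, 14 and 4, log2 -1.68). Chemosensory receptor genes, which fibroblasts are not known to use, had 4 higher and 7 lower among 17 (median -0.15), with Vmn2r109, Or6b2 (53, 10 and 5 reads, log2 -2.68), Or10aa1 (25, 16 and 2, log2 -2.61) and Vmn1r40 (25, 11 and 4, log2 -1.86) leading. Of 127 chemosensory genes with a promoter region, only these 17 reached 20 reads in NC plus siRNA. In so thin a list, a region reaches 20 reads more readily when 1 of the 2 libraries is high. The 11 of 17 called, beside a background of 18.1% higher and 18.4% lower, thus only describe the genes that passed. When centred, the respiratory chain list had 3 higher and 12 lower, the ribosomal list 3 and 6, the proteasome list 1 and 8 and the chemosensory list 1 and 7. Without the lines these were 2 and 13, 2 and 7, 1 and 9, and 1 and 7.

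Markers of cell types were too thinly covered to check the labelled cell type. Of 7 fibroblast markers, 3 (Col1a1, Dcn and Dpt) had a promoter region, with 33, 52 and 29 reads in all in NC, TGF-b and siRNA, and of 4 myofibroblast markers Acta2 and Tagln did, with 58, 69 and 36. Cardiomyocyte markers had a region for 2 of 7 (21, 14 and 15 reads in all), endothelial markers for 4 of 6 (30, 56 and 44), leukocyte markers for 2 of 6 (47, 16 and 17), epicardial markers for 2 of 4 (18, 39 and 30) and smooth muscle and pericyte markers for none of 6. Of these, Egfl7 with 4, 9 and 23 reads and Wt1 with 7, 19 and 20 reads were called higher and Acta2 lower. Binding at a promoter is no measure of a cell type, and the part of other cells in the results was not tested.

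Several genes held more than 1 differing region, counting only regions whose 2 kb windows do not overlap. These genes were picked after their values were seen. Of 12942 such regions at 9474 genes, 2830 (21.9%) were called lower and 2557 (19.8%) higher, and 318 genes had both. Of 718 genes with at least 3 such regions, 22 had 3 or more lower and none higher, and 19 had 3 or more higher and none lower, which was not compared with the number that the shares over all regions would give. Dclk1, a microtubule-associated kinase, was lower at all 4 of its regions, with 156 reads summed in NC, 112 in TGF-b and 17 with siRNA. At its promoter (chromosome 3, 55369180 to 55369366) the reads were 31, 21 and 1, and at its 5' UTR region (55149844 to 55150254) 43, 60 and 4. Notch2, a Notch receptor, was lower at all 3 regions (101, 83 and 17 reads summed), and Ank3, which links membrane proteins to the spectrin cytoskeleton, at all 4 (114, 34 and 14). Dclk1 and Notch2 kept most reads with TGF-b, whereas Ank3 had lost most of them already. The tensin genes Tns1 and Tns3, which encode focal adhesion proteins, were lower at 5 of 13 and 4 of 8 regions, Lpp at 3 of 5, Actn4 at 3 of 4, Phldb2 at 3 of 6 and Myo1e at 3 of 5. Neither Tns1 promoter region was called, with 52, 57 and 44 reads (log2 0.21, -0.37 to 0.78) and 45, 48 and 23 reads (log2 -0.49, -1.23 to 0.20), and its lower regions were in introns and downstream.

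Of the 19 genes with higher regions, Dlgap2, a postsynaptic scaffold gene, was higher at all 4 of its intron regions (34, 47 and 126 reads summed), and Neat1, a long noncoding RNA of paraspeckles, at all 3 (136, 211 and 306 reads). The deepest Neat1 region (chromosome 19, 5888865 to 5888985) held 48, 75 and 134 reads, a log2 ratio of 1.91 (1.45 to 2.40). Bmp6, a ligand of the TGF-b superfamily, was higher at all 3 of its regions (62, 76 and 116), and Plce1, a phospholipase C, at 3 of 4 (34, 84 and 78). The neuronal genes Ntm, Dpp6, Cntnap2 and Nrxn3 were also among the 19, with the Cntnap2 regions spread over 1816 kb. Of the 19 genes, 9 kept at least 3 higher and no lower regions when centred and 5 without the lines, while genes with at least 3 lower and no higher regions went from 22 to 53 and 82. Bmp6 then had 2 and 1 higher regions, Neat1 3 and 2, and Nrxn3 2 and 0, whereas Dlgap2 kept all 4 and Plce1 3 under both.

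Promoter sequence was compared between genes that differed and genes that did not. Of genes with at least 20 reads and a region within 700 bases of the TSS, 3094 had 1 RefSeq promoter record. The TEAD core was in 12.2% (9.69% to 15.2%) of the 542 promoters higher with siRNA, 8.88% (6.75% to 11.6%) of the 529 lower and 10.1% (8.89% to 11.5%) of the 2023 that were neither, against 12.6% of all promoters in the table. CCAAT was in 45.8%, 42.3% and 46.1%, and an AP-1 site in 4.24%, 4.16% and 3.95%. CArG boxes were found in 4, 7 and 22 promoters, and the SMAD element in 1, 3 and 3. The median GC content was 60.4%, 60.8% and 61.6%, above the 52.0% of all promoters. The interval of every motif share of the higher and lower genes overlapped that of the genes that were neither, so no difference in these letters was detectable.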

How the data were processed

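CUT&Tag of mouse primary cardiac fibroblasts was analysed from 2 deposited tables of the T set, 1 library per group, so no p-value was computed. The authors counted reads in 2 kb windows around called regions and deposited them as a normalized signal, the read density, after rescaling the libraries of each table with a fitted line. The processing notes name BWA 0.7.12 and mm10, whereas the study's methods name Bowtie2 and GRCm39. The coordinates fit GRCm39, and RefSeq promoters (GRCm38.p6) were matched by symbol and printed in place of the regions' own bases, for which a genome of that build was not used here. The authors' own M values, log2 fold changes and P-values were in the tables and were not used.

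Density equalled (reads + 1) times 0.5 before rescaling, which gave whole reads within 0.1 in 99.993% of regions of either table. Regions were joined by an overlap of 1 bp, and all joined regions had the same ends and the same TGF-b reads in both tables. The log2 ratio of siRNA to NC was the sum of log2 TGF-b over NC and log2 siRNA over TGF-b. A counting interval at 95% covers sampling of reads only, as do the Wilson intervals of shares, and reads at neighbouring regions are not independent. Folds against 0 reads used a floor of 3 reads per library. A call at a gene required a 2-fold difference and an interval that leaves out 0, at 1 region per gene, that of highest mean signal among those up to 3 kb from a TSS.

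Named genes had at least 20 reads in NC plus siRNA and under 500 in each library. They were the 8 higher and 8 lower with the interval bound farthest from 0, the 8 raised and 5 lowered by TGF-b with siRNA within 1.5-fold of NC, up to 4 called members per gene list, and 16 genes by name, of which 1 is not reported here. The regions, lists and rules were chosen with earlier results of these data known. Alternatives were centring, dropping the lines, other thresholds, the read floor, regions above the median signal, 1 kb promoters and 50% overlap. Scripts used Python 3.11.15, numpy 2.4.6, pandas 2.3.3 and matplotlib 3.10.9, and were tested on simulated data.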

Additional observations from a re-analysis of the deposited data

Results flagged for a closer look

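The S set, the study's other set, in which the siRNA is labelled after SRF, went in the opposite direction over all joined regions. Its median log2 siRNA over NC was -0.46, whereas that of the T set was 0.23. With 1 library per group in both, this difference was not tested. At a minimum of 20 reads the medians were -0.11 (S) and -0.04 (T), and at the 2225 regions that reached this depth in both they were 0.43 (S) and 0.09 (T).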

How the results depend on the processing

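No paired analysis was possible because each group was 1 library. The median log2 ratio of siRNA to NC, 0.23 over all joined regions, turned to -0.087 when centred, -0.32 without the authors' lines and -0.036 with at least 20 reads, and was 0.61 with 3 reads as the lowest value and 0.057 above the median of mean signal. Regions higher than NC numbered 26054 at 1.5-fold, 8387 at 4-fold, 7081 above the median signal and 3959 with at least 20 reads. Lower regions numbered 22441 without the lines, 7055 at 4-fold, 7641 with the floor, 6693 above the median signal and 4654 with at least 20 reads. Raised regions back near NC were 41.3% without the lines, 16.5% at 1.5-fold, 61.8% at 4-fold, 68.1% with the floor, 36.1% above the median signal and 32.2% with at least 20 reads. Lowered regions back near NC were 47.9% when centred, 36.3% without the lines, 29.4% at 1.5-fold and 86.8% at 4-fold. The promoter share of higher regions was 16.8% when centred, 15.9% without the lines, 17.99% at 1.5-fold, 14.7% at 4-fold, 21.6% with the floor, 28.7% above the median signal, 12.9% within 1 kb and 34.9% with at least 20 reads. That of lower regions was 20.7% at 1.5-fold, 17.5% at 4-fold, 26.3% with the floor, 29.1% above the median signal, 13.6% within 1 kb and 30.6% with at least 20 reads. The 20-read minimum was chosen after seeing the data, and the causes of these shifts were not tested.

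Of 111 named or listed regions past 2-fold, 17 no longer were when centred and 24 without the lines, and none reversed. Of all joined regions past 2-fold, 51.9% were higher as deposited, 41.8% when centred and 34.9% without the lines.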

Other observations

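On the X chromosome, 54 of 187 regions with at least 20 reads (28.9%, 22.9% to 35.7%) exceeded NC at least 2-fold with siRNA, against 20.5% (19.9% to 21.1%) of 19005 autosomal regions, and the shares at least 2-fold lower were 23.5% and 24.2%. The 13 mitochondrial regions, which were left out above, had log2 ratios of siRNA to NC between -0.24 and -0.0071, none above 0, with median reads of 203844 in NC, 447232 in TGF-b and 200803 with siRNA. Among regions outside the join, 16896 called in NC only and 8521 called with siRNA only held at least 20 reads in that library.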
